A study of Mus musculus with 8 samples.

Results

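The nuclear genes of oxidative phosphorylation (OXPHOS) were followed through whole mouse testes with and without an induced loss of *Spdya* in germ cells. Members were the protein-coding rows of the deposited gene table whose symbols begin with Nduf (complex I and its assembly factors), Uqcr (complex III), Cox4 to Cox8 (complex IV) or Atp5 (complex V), together with *Sdha*, *Sdhb*, *Sdhc* and *Sdhd* (complex II). The rule found 94 rows among 22046 protein-coding genes and 54532 genes in all. Of these, 91 passed the filter of a mean FPKM above 1 in both groups and were tested. FPKM counts sequenced fragments relative to gene length and library size, so that levels can be compared between genes of different lengths. The 3 rows that were not tested were *Cox6a2* and *Cox8b*, with 12 and 5 fragments over all 8 libraries, and one of 2 rows named *Atp5o* (ENSMUSG00000116933), which was listed at 0 in every library.

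A single library was made from each whole testis sample, 4 of *Sync-Spdya fl/fl* mice, called controls here, and 4 of *Sync-Spdya cKO* mice. In both groups spermatogenesis had been synchronized by blocking retinoic acid (RA) synthesis and then giving RA, all mice were homozygous for a floxed *Spdya* allele made on C57BL/6J, and all received tamoxifen, at RA7.5 and RA8.5 by the labels and slightly earlier by the study's methods. Only the cKO mice carried the tamoxifen-inducible Cre driven by the germ cell gene *Ddx4*, which removes exon 2 of *Spdya* but does not reach every spermatocyte. Testes were taken at RA11.50, when the leading germ cells were mid to late pachytene spermatocytes, to ask whether persistent synapsis between X and Y disturbs silencing of the sex chromosomes. The Cre acts in germ cells while the RNA is from the whole testis, so that for every difference below, fewer cells of a type and less RNA per cell cannot be told apart.

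OXPHOS couples the oxidation of NADH and succinate by complexes I and II to electron transfer through complexes III and IV, and complex V, the ATP synthase, uses the resulting proton gradient to make ATP. Each complex except complex II combines subunits from nuclear and mitochondrial genes. Male germ cells replace several nuclear subunits of complex IV, cytochrome c oxidase, with isoforms encoded by separate genes, among them *Cox6b2*, *Cox7b2* and *Cox8c*, and they likewise use a testis cytochrome c (*Cyct*), a germ cell ADP/ATP carrier (*Slc25a31*) and an autosomal pyruvate dehydrogenase subunit (*Pdha2*).

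The libraries held 13978342 to 19583091 fragments on genes, and members took 0.702% to 0.962% of them. *Spdya* itself had 19.7 to 23.8 FPKM in controls and 17.7 to 30.5 FPKM in cKO libraries, so that its level over the whole gene gave no check of the labels. The 8 spermatocyte markers summed to 1040 to 1611 FPKM in controls and 844 to 1308 FPKM in cKO libraries. The 6 Sertoli markers summed to 254 to 369 and 290 to 350 FPKM, while the 5 spermatid markers, from cells that should not yet be present, summed to at most 1.17 FPKM. Markers of macrophages (4 genes) summed to 6.08 to 13.3 and 13.1 to 16.2 FPKM and those of peritubular cells (4 genes) to 44.3 to 74.1 and 73.2 to 103.2 FPKM. Control replicate 1 stood apart: 0.464% of its fragments were from mitochondrial genes, against 2.20% to 3.74% in the other 7 libraries. Many main values are also given without it, but not all of those that it moves.

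Most members were abundant: 78 of the 91 tested had a mean above 10 FPKM and 8 had a mean above 100 FPKM. Their median of 43.0 FPKM compared with 9.54 FPKM over all 12141 genes tested. The highest member was the testis isoform *Cox8c*, with a mean of 399.8 FPKM over the 8 libraries, ahead of *Cox6a1* (264 FPKM), which encodes the standard subunit 6A of cytochrome c oxidase. The ATP synthase subunits *Atp5a1* (238 FPKM) and *Atp5b* (194 FPKM) and the regulatory cytochrome c oxidase subunit *Cox4i1* (189 FPKM) came next, followed by the testis isoforms *Cox6b2* (154 FPKM) and *Cox7b2* (122 FPKM). Thus all 3 testis isoforms were among the 7 highest members.

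**Figure D1:**
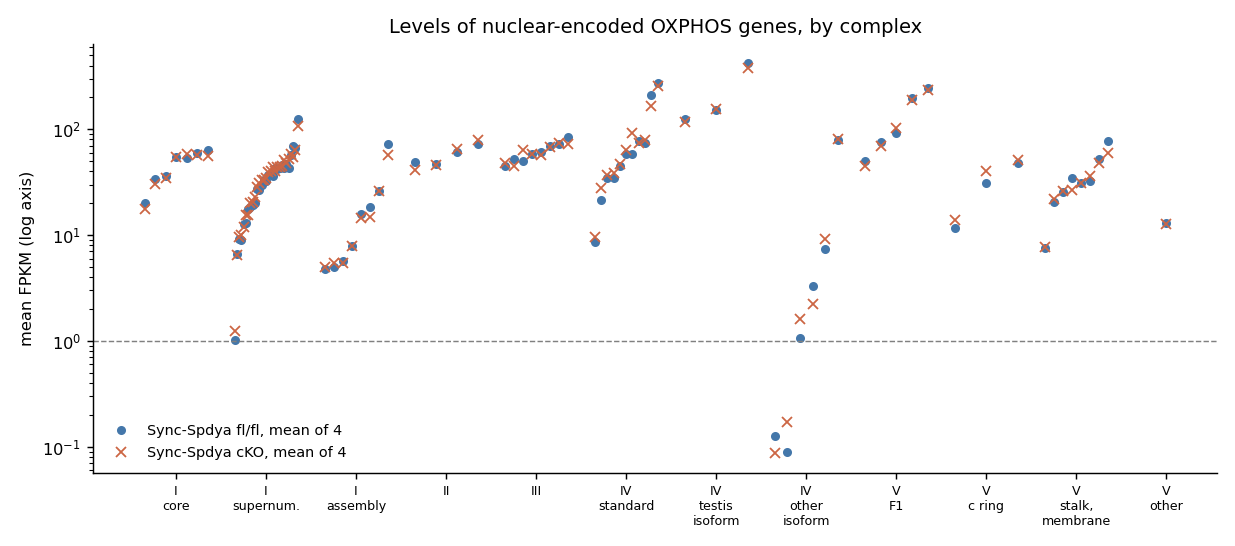
Mean FPKM of each member in control (circles) and cKO (crosses) testes on a log axis, with 1 column of points per complex or subunit class and the dashed line at 1 FPKM. The testis isoforms of complex IV lie between 118 and 418 FPKM in both groups, and the row of *Atp5o* listed at 0 is not drawn.

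Subunits of one complex differed in level. In complex II, the succinate dehydrogenase, the 4 subunits lay close together, from 45.3 FPKM (*Sdhc*) to 76.6 FPKM (*Sdhd*). The 8 members of complex III also spanned a narrow range, from 46.4 to 78.0 FPKM. The 7 core subunits of complex I ranged from 19.0 FPKM (*Ndufs1*, the largest iron-sulfur subunit) to 60.2 FPKM (*Ndufv1*, which binds NADH and FMN). Its 29 supernumerary subunits ranged from 1.14 FPKM (*Ndufb2*) to 115 FPKM (*Ndufa2*), and its 8 assembly factors from 4.89 to 64.5 FPKM. The 5 F1 subunits of complex V, where ATP is made, ranged from 47.4 to 238 FPKM. In 27 of the 94 rows the gene's span overlapped that of another protein-coding gene, in 7 of them on the same strand, and the use of strand in counting is not given in the sources used here.

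Each testis isoform exceeded its standard partner in every library. *Cox6b2* (chromosome 7, 4751792 to 4753094 on GRCm38) encodes the testis form of the subunit at the dimer interface of cytochrome c oxidase. It had 137, 196, 176 and 101 FPKM in control replicates 1 to 4 and 186, 155, 157 and 122 FPKM in cKO replicates 1 to 4, and the groups overlapped. Its standard partner *Cox6b1* had 50.8, 62.9, 59.5 and 57.7 FPKM in controls and 63.4, 62.2, 66.2 and 62.6 FPKM in cKO libraries. *Cox6b2* was thus 1.76 to 3.12 times *Cox6b1* and made up 63.7% to 75.7% of the sum of both.

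*Cox7b2* (chromosome 5, 71442824 to 71548205) had 97.6, 129, 137 and 140.1 FPKM in controls and 161, 106, 113 and 93.2 FPKM in cKO libraries. The highest and the lowest value were both from cKO libraries. Its partner *Cox7b*, an X-linked gene, had only 6.35, 8.41, 8.48 and 11.1 FPKM in controls and 7.35, 9.49, 10.6 and 11.1 FPKM in cKO libraries. The ratio of the pair was 8.43 to 21.9, the widest gap of the 3 pairs in all 8 libraries, and *Cox7b2* held 89.4% to 95.6% of the sum.

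*Cox8c* (chromosome 12, 102899316 to 102900526) had 468, 427, 460.0 and 318 FPKM in controls and 522, 354, 341 and 309 FPKM in cKO libraries, again with overlap. *Cox8a* (chromosome 19, 7215158 to 7217616) encodes the standard subunit 8, and had 31.9, 79.6, 60.2 and 59.1 FPKM in controls and 81.2, 92.6, 98.7 and 97.5 FPKM in cKO libraries. All 4 cKO values lay above all 4 control values, and control replicate 1 was the lowest by far. *Cox8c* was 3.17 to 14.7 times *Cox8a*, a range that ended at 7.64 without control replicate 1, and held 76.0% to 93.6% of the sum.

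**Figure D2:**
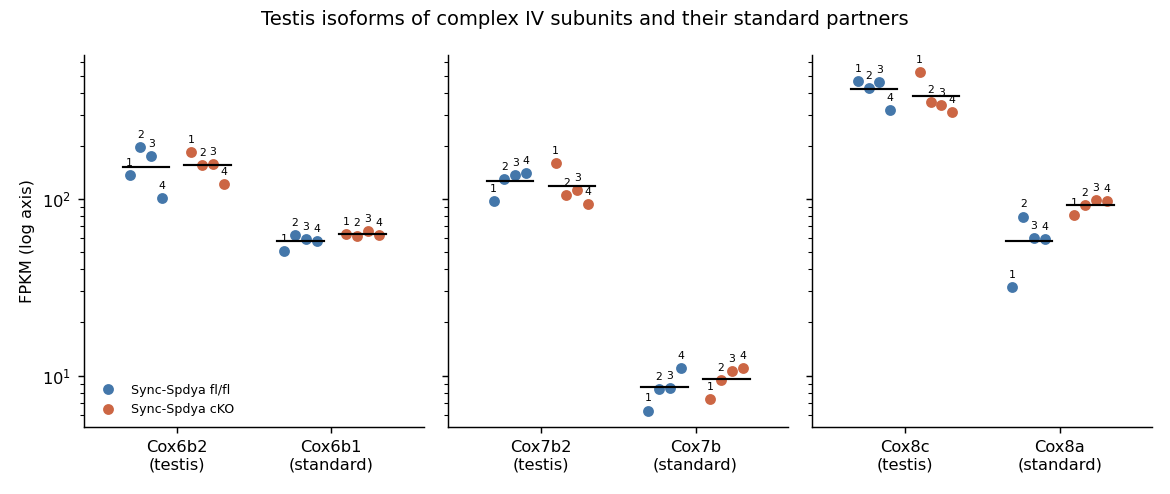
FPKM (log axis) of the testis isoforms *Cox6b2*, *Cox7b2* and *Cox8c* beside their standard partners. Each point is 1 library with its replicate number, horizontal lines are the means of 4, and in each panel every point of the testis isoform lies above every point of the standard gene.

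The promoters of these genes are shown because testis and standard genes of a pair are separate genes, each with a start of its own. Each sequence runs from 250 bases before to 50 bases after the transcription start in RefSeq on GRCm38.p6, on the gene's own strand. Capitals mark matches to the NRF1 core GCATGCGC or the ETS core CCGGAAG on either strand, both known from OXPHOS promoters. *Cox6a1* (chromosome 5, minus strand, chr5:115348909-115349208) is added as the standard gene with the highest level. Its capitals hold 2 overlapping NRF1 matches and 1 ETS match.

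Cox6a1: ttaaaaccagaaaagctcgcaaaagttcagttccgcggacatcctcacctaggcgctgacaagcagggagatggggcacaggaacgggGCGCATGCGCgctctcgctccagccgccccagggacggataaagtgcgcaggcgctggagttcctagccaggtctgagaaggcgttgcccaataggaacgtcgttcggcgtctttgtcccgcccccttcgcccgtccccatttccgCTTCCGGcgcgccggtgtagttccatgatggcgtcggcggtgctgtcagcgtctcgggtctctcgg

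The promoter of *Cox8a* (chromosome 19, minus strand, chr19:7217567-7217866) holds 2 ETS matches and 19 CpG, and that of *Cox6b1* (chromosome 7, minus strand, chr7:30626065-30626364) holds 1 ETS match and 17 CpG.

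Cox8a: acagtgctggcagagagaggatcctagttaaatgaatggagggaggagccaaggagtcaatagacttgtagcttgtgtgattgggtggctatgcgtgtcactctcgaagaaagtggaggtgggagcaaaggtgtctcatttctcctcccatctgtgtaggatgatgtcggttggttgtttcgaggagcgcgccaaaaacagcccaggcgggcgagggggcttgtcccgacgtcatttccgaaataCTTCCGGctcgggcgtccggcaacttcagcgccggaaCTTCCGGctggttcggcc

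Cox6b1: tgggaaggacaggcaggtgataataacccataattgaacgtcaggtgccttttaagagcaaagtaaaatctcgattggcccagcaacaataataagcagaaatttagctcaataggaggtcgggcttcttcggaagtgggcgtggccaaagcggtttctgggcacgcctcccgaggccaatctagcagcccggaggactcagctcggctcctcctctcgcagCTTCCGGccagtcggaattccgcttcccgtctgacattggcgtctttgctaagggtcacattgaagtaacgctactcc

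The promoters of the testis isoforms *Cox6b2* (chromosome 7, minus strand, chr7:4753045-4753344) and *Cox7b2* (chromosome 5, minus strand, chr5:71548156-71548455) held none of the 6 motifs searched and 10 CpG each. That of *Cox7b* (chrX:106015450-106015749, plus strand) also held none, with 5 CpG.

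Cox6b2: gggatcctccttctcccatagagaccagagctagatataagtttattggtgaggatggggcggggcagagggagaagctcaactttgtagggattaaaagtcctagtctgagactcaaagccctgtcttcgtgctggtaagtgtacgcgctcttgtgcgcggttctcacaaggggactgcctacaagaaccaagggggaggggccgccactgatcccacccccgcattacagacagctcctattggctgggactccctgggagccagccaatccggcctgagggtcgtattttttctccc

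Cox7b2: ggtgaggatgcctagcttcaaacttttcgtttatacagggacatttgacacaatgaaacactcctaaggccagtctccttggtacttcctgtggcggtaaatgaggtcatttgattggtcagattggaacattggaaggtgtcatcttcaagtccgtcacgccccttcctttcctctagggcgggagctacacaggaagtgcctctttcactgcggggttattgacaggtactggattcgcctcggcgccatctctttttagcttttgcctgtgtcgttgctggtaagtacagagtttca

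Cox7b: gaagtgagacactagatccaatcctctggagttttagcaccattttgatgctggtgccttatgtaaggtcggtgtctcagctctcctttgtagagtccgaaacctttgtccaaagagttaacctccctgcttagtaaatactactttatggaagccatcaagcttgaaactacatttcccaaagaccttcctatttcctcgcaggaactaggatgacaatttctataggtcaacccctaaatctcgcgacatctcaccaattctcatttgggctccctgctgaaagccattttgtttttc

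RefSeq promoters were found for 74 of the 94 members (79 promoters) and compared with all 32851 mouse promoters of the same length, *Cox8c* not being among them. Member promoters held a median of 19 CpG against 7 over all, and 1 of the 79, that of *Cox8b*, held fewer than 5 against 38% of all. The NRF1 core was in 12 member promoters (15.2% against 2.71% of all), the ETS core in 18 (22.8% against 8.86%) and the YY1 core AAGATGGC in 10 (12.7% against 2.75%). The CRE palindrome TGACGTCA was in 4 (5.06% against 1.79%), the ESRRA core TCAAGGTCA in 2 (2.53% against 0.423%) and the MYB core AACCGTT in 0 (against 0.913%). Both strands were searched, and the letters of these 6 motifs do not contain one another. The 5 members whose promoters held both NRF1 and ETS cores were *Sdhb*, *Uqcr11*, *Cox6a1*, *Atp5k* and *Atp5l*. A match describes these letters and not a bound site.

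No member passed the study's thresholds between genotypes, which are an adjusted p below 0.05 together with more than a 2-fold change. The study applied them with another test, DESeq2, and reported differences on autosomes only. Here they were applied to limma on FPKM, which called fewer genes than the study reported. Of all 12141 genes, 2 were called (0.0165%), and among the 91 members 0 were called and 0 reached an adjusted p below 0.05. The lowest adjusted p (limma on log2(FPKM + 0.1), Benjamini-Hochberg over all genes tested) was 0.304. At an unadjusted p below 0.05, 3 members were higher in cKO testes (5.89% of all genes) and 1 was lower (5.0% of all genes), so that the members' shares lay below the background. The groups did not overlap in 3 members that were higher in cKO testes (3.64% of all genes) and in 0 that were lower (2.59% of all genes). The median log2 fold change of the members was 0.04, beside 0.01 over all genes, and 54 of 91 were above 0 (59.3%, against 52.0% of all genes). Single libraries moved this median and turned its sign: it was 0.08 without control replicate 1, where 73 of 91 were above 0 (80.2%, against 57.2% of all genes), -0.018 without control replicate 4 (47.8% above 0) and -0.010 without cKO replicate 1 (48.4% above 0).

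The log2 fold changes ran from -0.51 to 0.75, and 74 of 91 were below 0.25 in size. In 86 of the 91 members the 95% confidence interval lay within a 2-fold change in either direction, so that larger changes of these genes lay outside the intervals. Without control replicate 1, 5 members were higher at an unadjusted p below 0.05 (9.66% of all genes) and 0 were lower (5.90% of all genes), and the lowest adjusted p was 0.121. Without control replicate 2, 9 of the 90 members then tested were higher at that threshold (6.06% of all genes), with 0 called.

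**Figure D3:**
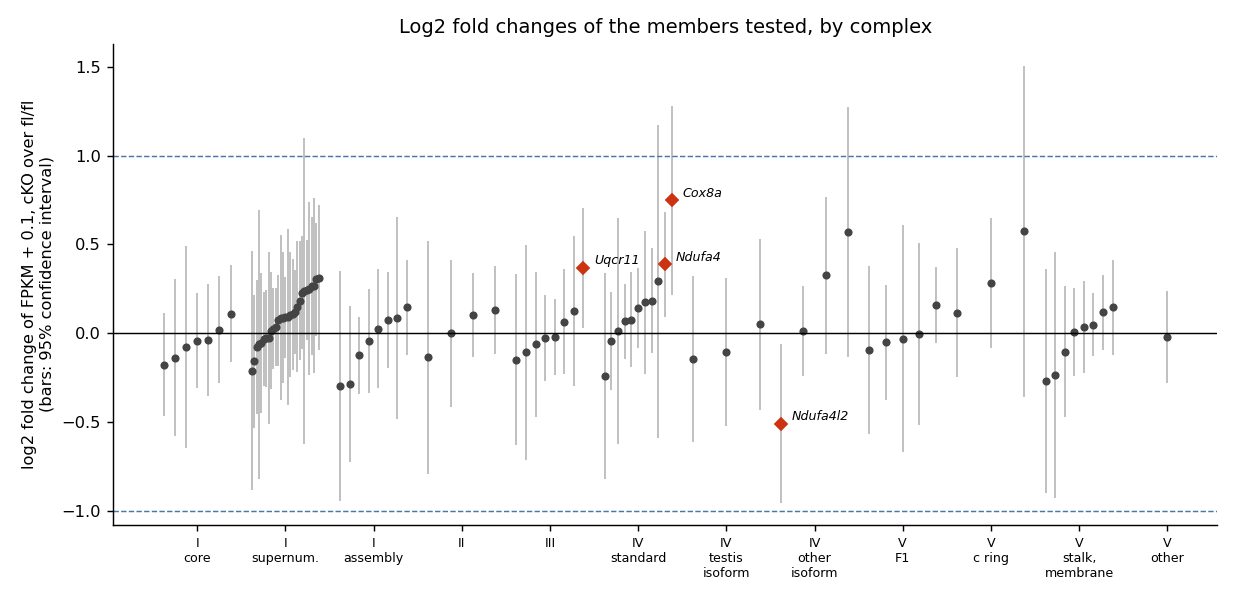
Log2 fold change (cKO over control) of the 91 members tested by complex or subunit class, with 95% confidence intervals. Red diamonds are the 4 members with an unadjusted p below 0.05, dashed lines mark a 2-fold change, and the points lie between -0.51 and 0.75.

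*Cox8a* had the largest log2 fold change of the members, although its lowest cKO value was only 1.94% above its highest control value. From the values above, cKO over control gave a log2 fold change of 0.75 ± 0.24 (standard error, SE, limma adjusted p = 0.304), and 0.49 (limma adjusted p = 0.121) without control replicate 1. *Ndufa4* (chromosome 6, 11900292 to 11907497), named for complex I and since known as a subunit of complex IV, had 16.2, 20.7, 23.3 and 25.1 FPKM in controls and 27.0, 27.2, 27.4 and 28.8 FPKM in cKO libraries. The cKO values were nearly equal, the lowest was 7.58% above the highest control, and the log2 fold change was 0.39 ± 0.13 (SE, limma adjusted p = 0.341), or 0.26 without control replicate 1. After rescaling each library to the same sum the groups of *Ndufa4* overlapped.

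*Uqcr11* (chromosome 10, 80402997 to 80406830), a small accessory subunit of complex III, had 39.9, 63.2, 55.3 and 42.8 FPKM in controls and 58.7, 63.1, 67.5 and 66.2 FPKM in cKO libraries. Control replicate 2 lay within the cKO range, and the log2 fold change was 0.37 ± 0.15 (SE, limma adjusted p = 0.429). The F1 gamma subunit gene *Atp5c1* (chromosome 2, 10056016 to 10080510) had 90.1, 95.6, 89.8 and 90.0 FPKM in controls and 101.9, 96.6, 107.5 and 102.3 FPKM in cKO libraries. These groups did not overlap, but the log2 fold change was only 0.16 ± 0.10 (SE, limma adjusted p = 0.608).

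The 1 member lower at an unadjusted p below 0.05 was *Ndufa4l2* (chromosome 10, 127514967 to 127517154), a hypoxia-inducible relative of *Ndufa4*. It had 4.53, 2.77, 3.45 and 2.34 FPKM in controls and 2.31, 2.23, 1.84 and 2.47 FPKM in cKO libraries, from 34 to 65 fragments per library. Control replicate 4 lay within the cKO range and control replicate 1 was the highest, and the log2 fold change was -0.51 ± 0.20 (SE, limma adjusted p = 0.406), or -0.34 without control replicate 1. *Uqcr11*, *Atp5c1* and the c subunit genes below were chosen after their values were seen.

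By complex, the medians of the log2 fold changes ran from -0.11 (testis isoforms of complex IV) to 0.28 (the c ring of complex V). In complex I they were -0.04 over the 7 core subunits, 0.09 over the 29 supernumerary subunits and -0.01 over the 8 assembly factors, with no gene at an unadjusted p below 0.05. In complex II the median was 0.05 over 4 genes and in complex III -0.02 over 8 genes. The 11 standard subunits of complex IV, *Ndufa4* included, had a median of 0.14, and 9 of them were above 0, with *Cox8a* and *Ndufa4* at an unadjusted p below 0.05. The 4 other isoforms of complex IV that were tested had a median of 0.17. The 3 testis isoforms of complex IV had log2 fold changes of -0.15 (*Cox8c*), -0.11 (*Cox7b2*) and 0.05 (*Cox6b2*), with limma adjusted p of 0.848 to 0.954. In complex V the medians were -0.03 over the 5 F1 subunits, 0.02 over the 8 stalk and membrane subunits and 0.28 over the 3 genes of the c ring. *Atp5s*, a factor associated with the synthase, had -0.02. Without control replicate 1 the medians of the complex I core, complex III and F1 turned to 0.06, 0.09 and 0.15, that of standard complex IV was 0.08 and that of the c ring 0.24. Of the highest members other than the testis isoforms, *Cox6a1* had 0.01, *Atp5a1* -0.01, *Atp5b* -0.05 and *Cox4i1* -0.24, with limma adjusted p of 0.794 to 0.995. Control replicate 1 held the highest control value of each. Without it they had 0.31, 0.23, 0.04 and 0.04.

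The 3 genes of the c ring, *Atp5g1*, *Atp5g2* and *Atp5g3*, encode one mature protein with different import sequences, so that their sum is the supply of the ring's message. The sum was 85.4, 103.0, 96.2 and 79.9 FPKM in controls and 104.0, 101.6, 118 and 99.7 FPKM in cKO libraries. *Atp5g2* had 9.29, 41.8, 41.5 and 32.5 FPKM in controls and 34.2, 40.9, 49.6 and 37.5 FPKM in cKO libraries, which put control replicate 1 far below the rest. In that library *Atp5g3* made up 76.8% of the sum and *Atp5g2* 10.9%, whereas in the other 7 libraries *Atp5g3* made up 42.7% to 54.6% and *Atp5g2* 32.9% to 43.2%. *Atp5g1* stayed between 10.7% and 14.1% in all 8 libraries. The log2 fold change of *Atp5g2* was 0.57 ± 0.42 (SE, limma adjusted p = 0.675) and 0.07 without control replicate 1.

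The 3 X-linked members all had higher means in cKO testes, without passing the test. *Ndufa1*, a supernumerary subunit needed for assembly of complex I, had 35.1, 51.3, 47.8 and 37.7 FPKM in controls and 48.0, 53.7, 59.3 and 49.3 FPKM in cKO libraries (log2 fold change 0.30, limma adjusted p = 0.485). *Ndufb11* had 38.3, 30.8, 25.4 and 23.3 FPKM in controls and 31.7, 34.5, 31.1 and 34.2 FPKM in cKO libraries (0.18, limma adjusted p = 0.716). Without control replicate 1, its highest value, the groups of *Ndufb11* did not overlap and its log2 fold change was 0.32 (limma adjusted p = 0.209). *Cox7b*, given above, had a log2 fold change of 0.17 (limma adjusted p = 0.787), or 0.04 without control replicate 1.

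Isoforms of other tissues were low. *Cox6a2* and *Cox8b*, of heart and skeletal muscle, had at most 4 and 2 fragments in a library, and the 5 skeletal muscle markers summed to 2.00 to 3.06 FPKM. *Cox4i2*, of lung, had 0.678, 1.12, 0.812 and 1.63 FPKM in controls and 0.916, 1.51, 2.33 and 1.72 FPKM in cKO libraries, at most 1.41% of the sum with *Cox4i1*. *Cox7a1*, of muscle, had 5.99, 7.84, 5.86 and 9.92 FPKM in controls and 8.19, 9.01, 7.54 and 12.2 FPKM in cKO libraries. Its partner *Cox7a2* had 23.2 FPKM in control replicate 1 and 69.2 to 100.2 FPKM in the other 7 libraries, so that the share of *Cox7a1* was 20.5% in that library and 5.52% to 15% elsewhere.

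The balance within a library was compared for the 9 isoform pairs with both genes detected, as the log2 ratio of FPKM + 0.1, with exact permutation tests over all 70 assignments (two-sided, smallest possible p 0.0286). The mean log2 ratio of *Cox8c* to *Cox8a* was 2.91 ± 0.68 in controls and 2.02 ± 0.46 in cKO testes (SD, n = 4 each), a difference of -0.89 (exact p = 0.0857). Without control replicate 1 it was -0.57 (exact p = 0.114, n = 3 and 4). Those of *Cox7b2* to *Cox7b* were 3.87 ± 0.16 and 3.59 ± 0.59 (difference -0.28, exact p = 0.343, n = 4 each), and those of *Cox6b2* to *Cox6b1* were 1.36 ± 0.38 and 1.27 ± 0.24 (difference -0.09, exact p = 0.657, n = 4 each). In these pairs the groups overlapped. Without cKO replicate 1, whose ratio was the highest of the cKO libraries in all 3 pairs, the difference of *Cox7b2* to *Cox7b* was -0.56 with no overlap. Its exact p of 0.0286 (n = 4 and 3, not adjusted) is the smallest possible. Leaving out the highest cKO ratio makes such a separation easier by construction. It was 1 of 11 alternatives for this pair, with exact p up to 0.714.

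The ratio of *Ndufa4l2* to *Ndufa4* was lower in each cKO library than in each control, with means of -3.59 ± 0.16 and -2.69 ± 0.64 (difference -0.90, exact p = 0.0286, n = 4 each). Control replicate 1 had a ratio of -1.82, against -3.37 to -2.72 in the other controls. The lowest control ratio, -3.37 in replicate 4, lay close to the highest cKO ratio, -3.49. Without control replicate 1 the difference was -0.61. Benjamini-Hochberg adjustment over the 9 pairs gave 0.257 for this pair and 0.257 to 0.943 over all. For *Cox4i2* to *Cox4i1* the difference was 0.81 (exact p = 0.314) and for *Cox7a1* to *Cox7a2* 0.03 (exact p = 0.943). Without control replicate 1 these differences were 0.36 and 0.43.

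**Figure D4:**
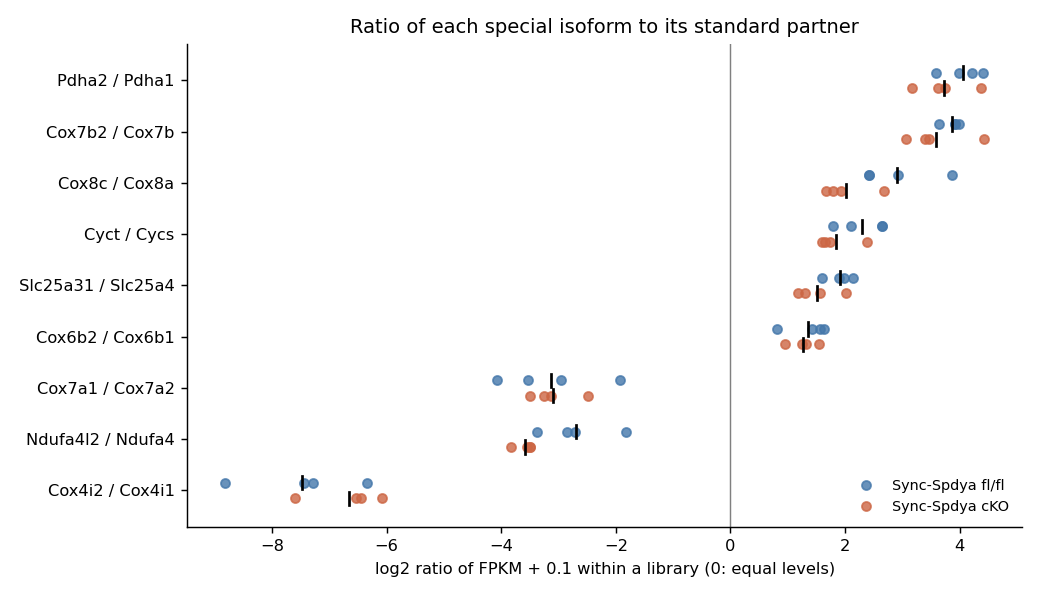
Log2 ratio within each library of a special isoform to its standard partner, for the 9 pairs with both genes detected (points are libraries, vertical lines the means of 4). The 6 pairs with a testis isoform lie above 0 in every library, and the groups are apart only for *Ndufa4l2* to *Ndufa4*.

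Testis partners outside the name rule had the same order of levels. *Cyct* was 3.04 to 6.28 times *Cycs*, the cytochrome c of other tissues, *Slc25a31* was 2.26 to 4.41 times *Slc25a4*, and *Pdha2* was 9.15 to 21.9 times the X-linked *Pdha1*. Their log2 ratios differed by -0.45 (exact p = 0.171), -0.39 (exact p = 0.143) and -0.33 (exact p = 0.314) between genotypes, each with overlap (n = 4 each). All 6 ratios of testis to standard genes were thus lower in the mean of the cKO libraries, none at p below 0.05. Beside this, 2 of 7 spermatocyte markers tested were lower at an unadjusted p below 0.05, *Ldhc* (log2 fold change -0.73, limma adjusted p = 0.287) and *Piwil1* (-0.40, limma adjusted p = 0.442), while the other 5 had log2 fold changes of -0.30 to 0.10. At the same threshold 1 of 6 spermatogonial markers was lower, *Stra8* (-1.46, limma adjusted p = 0.280, with overlap). The other 5 had log2 fold changes of 0.04 to 0.31. Higher were 2 of 4 macrophage, 1 of 3 peritubular, 1 of 2 Leydig and 1 of 3 erythroid markers, with 0 of 6 Sertoli markers in either direction. Over all genes 5.89% were higher and 5.0% lower at this threshold. The part of the markers in the ratios was not tested.

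A further 55 tested genes of the pathway carry electrons, transport or feed substrates, assemble the complexes or regulate them. At an unadjusted p below 0.05, 1 was higher (5.89% of all genes) and 0 were lower (5.0% of all genes). Without control replicate 1 these counts were 2 and 2 (9.66% and 5.90% of all genes). With all libraries the 1 gene was *Slc25a5*, an ADP/ATP carrier (log2 fold change 0.34, limma adjusted p = 0.413), chosen after its value was seen. The median log2 fold change was -0.06 over the 34 assembly factors and -0.07 over the 12 regulators, which include *Nrf1*, *Gabpa* and *Tfam*. Without control replicate 1 these medians turned to 0.04 and 0.02. *Cyc1*, the cytochrome c1 of complex III, had a mean of 83.2 FPKM in controls and 82.2 FPKM in cKO testes (0.03, limma adjusted p = 0.970). The 13 mitochondrial mRNAs summed to 3665 FPKM in control replicate 1 and 17210 to 28264 FPKM in the other 7 libraries, and their median log2 fold change was 0.66, but -0.047 without that library. With all libraries 1 of 13 was higher at an unadjusted p below 0.05 (5.89% of all genes). Without control replicate 1 none was (9.66% of all genes). The 1 gene, *mt-Atp8*, was listed at 0 in 2 control libraries.

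Of the 8 libraries, control replicates 1 and 4 deviated most from the mean of the other 7. The median size of the log2 deviation over the members was 0.41 and 0.30 in them, against 0.10 to 0.19 in the rest. Control replicate 1 held the highest of the 8 values in 40 members and the lowest in 23, together 69.2% of members against 57.8% of all genes tested. Its members deviated from the mean of the other 7 libraries by -2.07 (*Atp5g2*) to 1.42 (*Atp5h*, the d subunit of the ATP synthase stalk) on the log2 scale. *Cox7a2* deviated by -1.83, *Cox8a* by -1.32 and *Ndufa12* by -1.25, so that low and high members of a complex stood side by side in this library. In 15 of the 91 members it differed by more than 2-fold from the mean of the other controls, a larger share than the 7.01% of all genes.

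Control replicate 4 was the lowest of the 8 libraries in 40 of the 91 members (23.8% of all genes), with a median deviation of -0.27, against -0.06 over all genes and -0.21 over the shortest 10% of genes. cKO replicate 1 was the highest in 21 members (8.33% of all genes) and the lowest in 0 (6.94% of all genes), with a median deviation of 0.18, against 0.03 over all genes and 0.11 over the shortest 10%. Members were short: their median length was 1587 bases against 4268 over all genes, and 46 of 91 lay in the shortest 10% (up to 1619 bases). The part of gene length in these deviations was not tested. Members made up 1.68% of protein-coding FPKM in control replicate 4, 2.11% in cKO replicate 1 and 2.29% in control replicate 1.

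The median coefficient of variation of the members was 20.1% in controls, 13.6% in controls without replicate 1 and 9.91% in cKO testes. Over all genes tested these values were 17.2%, 12.2% and 9.43%. *Atp5j*, a coupling subunit of the ATP synthase, was the most even member in controls, with 24.9 to 25.6 FPKM, and had 25.5 to 26.6 FPKM in cKO libraries.

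**Figure D5:**
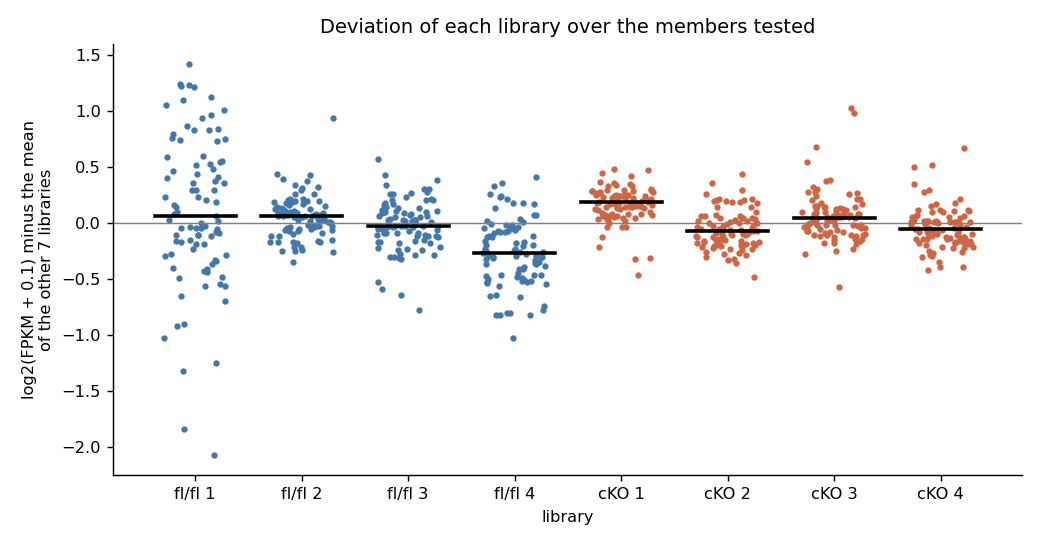
Deviation of each library from the mean of the other 7, in log2(FPKM + 0.1), for the 91 members tested (points) with their median (line). Control replicate 1 spreads from -2.07 to 1.42, control replicate 4 has a median of -0.27 and cKO replicate 1 a median of 0.18.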

How the data were processed

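Bulk RNA-seq of 8 whole testes was analysed from FPKM values that the authors deposited in 1 table and again in a file per library (8 of 8 equal to the table). The sequencing company's software made the FPKM. The aligner, the counter and the use of strand are not given in the sources used here. The submitters' processing notes name GRCm38 and mm10. FPKM multiplied by gene length gave whole fragments in 100% of values above 0 (tolerance 0.02).

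Members, gene lists, isoform pairs and motifs were chosen with earlier results of these data known. Genes named are those of the isoform pairs, X-linked members, members at an unadjusted p below 0.05 without overlap, the 5 highest and those not tested. All other names (subunits at the ends of a range, genes that deviate most or least, c ring genes, markers and genes of the other lists) were chosen after their values were seen. limma 3.58.1 (R 4.3.3, lmFit, eBayes with trend) was run on log2(FPKM + 0.1), a scale that understates changes of low genes, without covariates, for protein-coding genes whose mean FPKM exceeded 1 in each group. p-values were adjusted by Benjamini-Hochberg over all 12141 genes. The procedure was tested on simulated data in which no library deviated and changes were larger than those of any member. That test does not cover a library such as control replicate 1. Replicate numbers were not taken as pairs. Near-identical copies can share reads: 13 rows of other biotypes carry like names, 4 of them with a mean above 1 FPKM. Alternatives were other pseudocounts, filters, scalings, array weights, eBayes without trend, voom on recovered fragments, a replicate block and each library left out.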

Additional observations from a re-analysis of the deposited data

Results flagged for a closer look

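Within groups of 4 libraries, 6 values stood farther from the rest of their group than Dixon's 95% limit allows. Chance alone gives about 1 in 20 groups, and 86 groups were examined. Control replicate 1 had 0.464% of its fragments on mitochondrial genes, against 2.97% to 3.39% in the other controls. The members' median log2 level was 5.03 in control replicate 4 and 5.36 to 5.43 in the other controls. The members made up 2.11% of protein-coding FPKM in cKO replicate 1 and 1.83% to 1.87% in the other cKO libraries. *Atp5c1* had 95.6 FPKM in control replicate 2 and 89.8 to 90.1 FPKM in the other controls, so that this library decides how near the groups of that gene come. *Cox8b* was listed at 0 in control replicate 1 beside 0.153 to 0.178 FPKM in the other controls, and at 0.348 FPKM in cKO replicate 2 beside 0 in the other cKO libraries, from at most 2 fragments each. Over all 91 members tested, 14 of 182 groups were past the limit, 7 of them through control replicate 1 and 5 through cKO replicate 1.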

How the results depend on the processing

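Of the 91 members, 0 were called under each of the 18 alternatives. Over all genes, 57 of 12141 were called with array weights, where 454 had an adjusted p below 0.05. Under each other alternative 0 to 3 of all genes were called, so that few calls among the members were possible. The lowest adjusted p of a named member was 0.053, for *Ndufa4* with array weights, where *Cox8a* had 0.059. Members higher at an unadjusted p below 0.05 numbered 3, and 2 to 9 with each library left out. They were 5 without control replicate 1 and 9 without control replicate 2, against 9.66% and 6.06% of all genes. Members lower at that threshold numbered 1, and 0 with a mean FPKM above 5 or with voom (4.44% and 4.54% of all genes). With each library left out they numbered 0 to 2. They were 0 without control replicate 1 or 3 or cKO replicate 2 or 3, against 2.86% to 5.90% of all genes. Without control replicate 4 they were 2, against 7.81% of all genes. Members without overlap numbered 3 higher and 0 lower, and 3 to 10 higher and 0 to 2 lower with each library left out. Higher were 5 without control replicate 1 and 10 without control replicate 2, against 8.29% and 6.15% of all genes. Lower were 2 without cKO replicate 1, against 7.81% of all genes. Lower was 1 without control replicate 4 or cKO replicate 3 or 4, against 6.25%, 3.01% and 2.96% of all genes. Fewer libraries in a group make separation easier by construction.

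Same-numbered libraries deviated together at r = 0.288, 0.131, 0.0757 and 0.406. The same-numbered cKO library was the closest one for control replicates 1, 2 and 4, but not for control replicate 3. The labels name no pairs, so the main fit left the libraries unpaired, and what the numbers share was not tested. With the replicate block, 7 members were higher and 2 lower at an unadjusted p below 0.05 (7.69% and 2.20%, against 7.82% and 6.81% of all genes), and the ratio of *Ndufa4l2* to *Ndufa4* had an exact p of 0.125, the smallest that sign flips of 4 pairs allow.

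Directions that turned, none of them past the threshold, were those of *Atp5a1* (0.011 with median centring, 0.081 with array weights, 0.021 with voom), *Cox6b2* (-0.14) and *Cox7a2* (-0.078), both with array weights. With each library left out, log2 fold changes ranged from -0.15 to 0.23 for *Atp5a1*, from -0.15 to 0.043 for *Atp5b*, from -0.40 to 0.038 for *Cox4i1*, from -0.22 to 0.31 for *Cox6a1*, from -0.13 to 0.19 for *Cox6b2*, from -0.20 to 0.51 for *Cox7a2*, from -0.17 to 0.21 for *Cyc1* and from -0.048 to 0.13 for *Pdha1*. The ratio differences ranged from -0.28 to 0.010 for *Cox6b2* to *Cox6b1*, from -0.56 to -0.11 for *Cox7b2* to *Cox7b*, from -1.12 to -0.57 for *Cox8c* to *Cox8a* and from -0.28 to 0.43 for *Cox7a1* to *Cox7a2*. That of *Ndufa4l2* to *Ndufa4* ranged from -1.12 to -0.61. The members' median ranged from -0.018 to 0.08. The causes were not tested. Low counts limit *Cox4i2*, with 7 to 31 fragments per library.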
